A study of Mus musculus with 6 samples.

Results

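The genes described here were 10 matrix-remodelling genes of the mouse bladder: the metalloproteinases Mmp2, Mmp3 and Mmp14, their inhibitors Timp1, Timp2 and Timp3, the secreted proteases Adamts1 and Adamts5, and the hyaluronan synthases Has1 and Has3. They were chosen by name and their rows were matched by Ensembl ID. Of the 10, 9 were listed in all 6 tables and so belonged to the 14338 genes used, and Mmp3 did not. The data are droplet-based single-cell RNA sequencing of the bladder mucosa, the urothelium with the connective tissue beneath it, in 2 libraries each of healthy, acutely injured and chronically injured mice. Each captured mRNA is tagged near its 3' end with a unique molecular identifier (UMI). A level is given as CPM, the UMIs of a gene per 1000000 UMIs summed over all cells of a class in 1 library, so that a level counts tags and is not scaled by gene length.

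All mice were wild type C57BL/6 animals labelled as 8 weeks old. The healthy libraries carry no treatment in the labels. The acute libraries came from mice 48 h after CPP (cyclophosphamide, an alkylating drug whose urinary breakdown products injure the urothelium), and the chronic libraries from mice given 4 rounds of CPP and labelled day 11. The mucosal layer was torn off the bladder and digested with collagenase, an enzyme that cuts matrix. The methods of the study state that several mice of both sexes stood behind each condition, and the tables do not tell mice apart, so the library was the replicate.

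Metalloproteinases cut collagens and other matrix proteins outside the cell. Mmp14 sits in the cell membrane and, together with Timp2, activates the secreted proenzyme of Mmp2, while at higher amounts Timp2 blocks the same enzymes. Timp3 stays bound to the matrix and also inhibits Adamts proteases, which cut the large proteoglycans versican and aggrecan. Has enzymes make hyaluronan at the cell membrane, a long sugar chain that holds water in loose connective tissue.

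In the mouse genome (GRCm38, GENCODE M21), all 10 are protein-coding genes. Adamts1 (chr16:85793827-85803113, minus strand) and Adamts5 (chr16:85856173-85901828, minus strand) are neighbours on chromosome 16. Mmp2 (chr8:92827291-92853420) and Has3 (chr8:106870242-106884566) lie on the plus strand of chromosome 8, Mmp3 at chr9:7445822-7455975 on the plus strand, Mmp14 at chr14:54431612-54445364 on the plus strand and Has1 at chr17:17843323-17855205 on the minus strand. Timp1 (chrX:20870166-20874735, plus strand) overlaps Syn1 and Timp3 (chr10:86300372-86349506, plus strand) overlaps Syn3, both on the other strand. Timp2 (chr11:118301069-118355740, minus strand) overlaps Cep295nl on its own strand, and Has3 overlaps Chtf8 on the other strand. Reads of Timp2 and Cep295nl may therefore not be separable.

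The reference table of promoters (RefSeq, GRCm38.p6) held 7 of the 10 genes, and Mmp2, Adamts5 and Has3 were not among them. The 250 bases before the RefSeq start of 4 genes that differed between cell classes are shown 5' to 3' on the strand of the gene. For Has1, Timp3 and Mmp14 this start differs from the GENCODE gene end given above. The Has1 and Timp3 windows reach into the GENCODE gene, with the marked GC box of Timp3 inside it. The Mmp14 window stops short of its gene. Has1 and Timp3 were lower in myofibroblasts, Mmp14 was higher there, and Mmp14 and Adamts1 were highest in the basal layer of the urothelium. Capitals mark matches, on either strand, to the GC box (letters GGGCGG). They also mark the TATA box, searched as the letters TATAAA, and the site of the factor AP-1, searched as TGANTCA. The cyclic AMP response element, or CRE, was searched as TGACGTCA, and the CArG box by name.
Has1, chr17:17855189-17855438, minus strand: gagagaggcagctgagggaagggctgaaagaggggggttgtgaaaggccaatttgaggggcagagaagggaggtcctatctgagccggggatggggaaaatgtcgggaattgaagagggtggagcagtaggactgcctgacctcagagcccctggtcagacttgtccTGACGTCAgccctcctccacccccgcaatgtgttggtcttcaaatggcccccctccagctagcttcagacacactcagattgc
Timp3, chr10:86300162-86300411, plus strand: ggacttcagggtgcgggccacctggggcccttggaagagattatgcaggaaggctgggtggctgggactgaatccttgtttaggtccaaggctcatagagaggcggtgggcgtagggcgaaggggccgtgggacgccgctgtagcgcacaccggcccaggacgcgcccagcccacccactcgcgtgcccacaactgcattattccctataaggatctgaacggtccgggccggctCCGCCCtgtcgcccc
Mmp14, chr14:54431348-54431597, plus strand: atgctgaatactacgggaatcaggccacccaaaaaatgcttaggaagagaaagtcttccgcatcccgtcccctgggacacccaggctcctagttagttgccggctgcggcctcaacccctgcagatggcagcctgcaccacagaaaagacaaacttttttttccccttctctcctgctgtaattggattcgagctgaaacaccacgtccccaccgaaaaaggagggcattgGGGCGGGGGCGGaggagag
Adamts1, chr16:85803114-85803363, minus strand: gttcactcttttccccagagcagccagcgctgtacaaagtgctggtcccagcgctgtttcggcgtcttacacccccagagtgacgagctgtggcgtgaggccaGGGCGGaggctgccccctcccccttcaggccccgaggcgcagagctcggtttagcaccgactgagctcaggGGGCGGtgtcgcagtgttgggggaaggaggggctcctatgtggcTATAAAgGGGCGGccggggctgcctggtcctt

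The Has1 window held the CRE letters once. The Timp3 window held 1 GC box, the Mmp14 window 2 adjacent GC boxes, and the Adamts1 window 3 GC boxes and 1 TATA box. The share of all 32817 promoter windows of this length with a match was 32.7% for the GC box, 12.4% for the TATA box, 6.75% for the AP-1 letters, 1.55% for the CRE and 1.47% for the CArG box. A match is a run of letters only, and these data do not measure binding.

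The 6 tables held between 54604109 and 111985678 UMIs and 50400 cells were kept. Healthy replicate 1 ends with 1 line cut short, and acute replicate 2 was counted with another version of the annotation, since between 320 and 482 of the gene IDs it shares with another table carry another symbol there, against 0 between any other 2 tables. The methods of the study mention that libraries were processed and sequenced in several batches, and which library was in which batch is not given in the sources used here, so that batch and condition cannot be told apart. Pairs of libraries shared between 36 and 229 barcodes, none with the same UMI total. Fibroblasts (marked by Cd34, Pi16, Clec3b, Scara5 and others) numbered 777 and 1315 in the healthy libraries, 304 and 1584 in the acute ones and 1047 and 23 in the chronic ones, so that the fibroblast sum of chronic replicate 2 rests on 23 cells. Myofibroblasts (marked by Acta2, Car3, Cxcl14 and others) numbered 987 and 344, 154 and 2560, and 78 and 90. The summed level of the 8 fibroblast markers was between 3604 and 12053 CPM in fibroblasts against 521 to 2407 CPM in myofibroblasts, and that of the 7 myofibroblast markers between 9699 and 22212 CPM in myofibroblasts against 135 to 2257 CPM in fibroblasts. The 2 subtypes were named by these same lists, so that their separation was set by the naming. In mural cells the myofibroblast markers summed to 8128 to 24174 CPM, much as in myofibroblasts. Values below are given in the order healthy 1, healthy 2, acute 1, acute 2, chronic 1 and chronic 2.

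By their mean levels, Mmp2 and Mmp14 were highest in myofibroblasts, Has1 and Timp3 in fibroblasts, Adamts1 in mural and endothelial cells and Has3 in basal urothelial cells. Timp1 and Timp2 were at like levels in fibroblasts and myofibroblasts, and Adamts5 in fibroblasts (115 ± 57.3 CPM, SD, n = 6) and mural cells (132 ± 120 CPM, SD, n = 2) did not differ beyond its spread. The mean level of Adamts1 was 569 ± 146 CPM (SD, n = 2 libraries, both acute) in mural cells and 372 ± 210 CPM (SD, n = 5) in endothelial cells, against 142 ± 69.5 CPM (SD, n = 6) in fibroblasts. Timp3 stood at 607 ± 216 CPM (SD, n = 2, both acute) in mural and 557 ± 256 CPM (SD, n = 5) in endothelial cells, below its fibroblast mean of 1413 ± 508 CPM (SD, n = 6). Over the acute libraries alone, fibroblasts were at 1155 ± 657 CPM and endothelial cells at 660 ± 153 CPM (SD, n = 2 each). The lowest fibroblast library (690 CPM, acute replicate 2) lay below the higher of the 2 mural libraries (759 CPM), so that this order did not hold beyond the spread. Macrophages carried Timp2 at 498 ± 253 CPM (SD, n = 6) and the other 8 genes at means of 59.4 CPM or less. These minor classes are small, and no test was made between them.

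**Figure D1:**
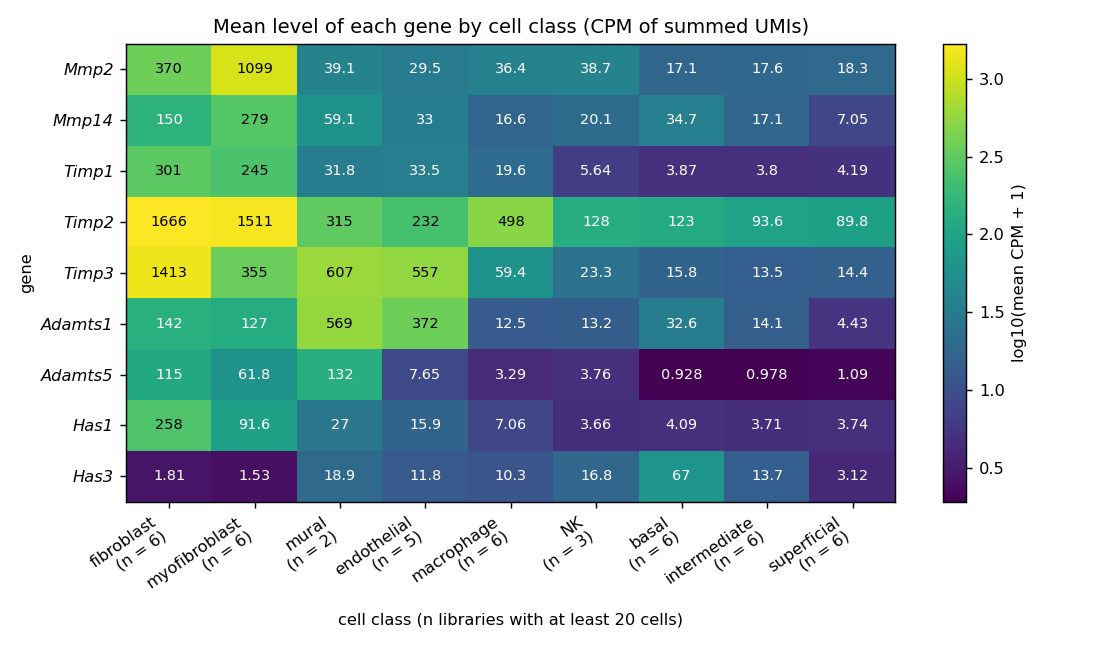
Mean level of 9 genes (rows) in 9 cell classes (columns), printed in CPM and coloured by log10(mean CPM + 1), over the libraries with at least 20 cells of the class (n under each name). Along the rows, Mmp2 peaks in myofibroblasts at 1099 CPM, Timp3 in fibroblasts at 1413 CPM, Adamts1 in mural cells at 569 CPM and Has3 in basal cells at 67.0 CPM.

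Mmp3, or stromelysin-1, was close to absent. It was listed in only 2 tables, with 1 UMI in 1 myofibroblast of acute replicate 2 and 2 UMIs in 2 intermediate cells of chronic replicate 1. In the tables of healthy replicate 2 and chronic replicate 2, which list genes seen in as few as 1 cell, it had no row. The fewest cells of any listed gene were 8 in the table of healthy replicate 1 and 6 in that of acute replicate 1. No comparison of Mmp3 was possible at this depth.

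Between the stromal subtypes, the proteases and their inhibitors did not move as a block. Of the 8 genes tested, Mmp2 and Mmp14 were higher in myofibroblasts, Timp3, Adamts5 and Has1 were lower, and Timp1, Timp2 and Adamts1 did not pass the test. Over all genes, 21.7% of 10929 were called in this comparison (12.0% higher and 9.66% lower), against 5 of the 8. The test was edgeR's quasi-likelihood test on summed UMIs with the library as a block and Benjamini-Hochberg adjustment over all genes. The 9 genes and the listed matrix genes had been kept out of the features used for clustering, but the subtypes were still defined by other genes of the same cells.

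Mmp2, or gelatinase A, which cuts denatured collagen and basement membrane collagen, had levels of 447, 284, 322, 524, 375 and 270 CPM in fibroblasts. Myofibroblast levels were 1297, 615, 913, 1070, 1144 and 1556 CPM, so that the lowest myofibroblast library lay above the highest fibroblast library. The log2 fold change was 1.51 ± 0.14 (SE), with an edgeR adjusted p of 1.14e-07, higher in 6 of 6 libraries. A UMI of Mmp2 was seen in 90.0% ± 10.1 (SD, n = 6) of myofibroblasts and 56.9% ± 10.7 of fibroblasts, and in 80.9% and 49.1% after each cell was thinned to 2000 UMIs, against 3.09% of basal cells after thinning. Cells with under 2000 UMIs were left out of thinned shares. Among fibroblasts they were 591 of 1315 in healthy replicate 2, 750 of 1584 in acute replicate 2 and 532 of 1047 in chronic replicate 1, and 0 in the other 3 libraries. Among myofibroblasts they were 0 to 97 cells of a library, among basal cells 2 to 77, among intermediate cells 9 to 461 and among superficial cells 0 to 93.

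Mmp14 stood at 173, 180, 75.6, 183, 153 and 135 CPM in fibroblasts and at 248, 159, 241, 458, 323 and 243 CPM in myofibroblasts. Myofibroblasts were higher in 5 of 6 libraries, healthy replicate 2 being the exception, and the groups overlapped only through that library. The log2 fold change was 0.89 ± 0.18 (SE), with an edgeR adjusted p of 0.000890.

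Timp3 showed the opposite order. It had 1944, 1822, 1619, 690, 1508 and 895 CPM in fibroblasts and 316, 705, 361, 170, 375 and 203 CPM in myofibroblasts. Each library was lower in myofibroblasts, although the healthy replicate 2 myofibroblasts (705 CPM) lay level with the acute replicate 2 fibroblasts (690 CPM). The log2 fold change was -2.01 ± 0.13 (SE), with an edgeR adjusted p of 8.62e-10. A UMI was present in 82.3% ± 10.9 (SD, n = 6) of fibroblasts and 49.8% ± 14.4 of myofibroblasts, and in 76.5% and 40.3% after thinning.

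Timp1 and Timp2 gave no such difference. Timp2 was between 1225 and 2105 CPM in fibroblasts and between 1074 and 1969 CPM in myofibroblasts, with a log2 fold change of -0.10 ± 0.11 (SE; edgeR adjusted p = 0.607). Timp1, a broad inhibitor of secreted metalloproteinases, was between 196 and 446 CPM in fibroblasts and between 178 and 419 CPM in myofibroblasts, with a log2 fold change of -0.20 ± 0.12 (SE; edgeR adjusted p = 0.280). In both subtypes the highest Timp1 level was that of acute replicate 1.

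Adamts5, the main aggrecan-cutting enzyme in mice, had 87.4, 81.2, 182, 44.1, 186 and 110 CPM in fibroblasts and 38.3, 57.9, 70.3, 37.7, 110 and 57.1 CPM in myofibroblasts. Levels were lower in myofibroblasts in 6 of 6 libraries, but the 2 ranges overlapped. Its log2 fold change was -0.76 ± 0.15 (SE), with an edgeR adjusted p of 0.000655. Adamts1, a versican-cutting enzyme, spread widely between libraries in both subtypes, from 73.5 to 273 CPM in fibroblasts and from 50.1 to 239 CPM in myofibroblasts. It was lower in myofibroblasts in 4 of 6 libraries, with a log2 fold change of -0.25 ± 0.17 (SE; edgeR adjusted p = 0.355).

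Has1 was a fibroblast gene, with 264, 300, 384, 64.1, 304 and 233 CPM in fibroblasts. In myofibroblasts it had 29.1, 127, 43.2, 11.6, 196 and 143 CPM. Acute replicate 2 held the lowest level in both subtypes, and apart from it every fibroblast library lay above every myofibroblast library. The log2 fold change was -2.01 ± 0.26 (SE), with an edgeR adjusted p of 8.01e-06, lower in 6 of 6 libraries. The share of cells with a UMI was 34.9% ± 14.7 (SD, n = 6) in fibroblasts and 13.8% ± 8.13 in myofibroblasts, and 29.7% and 11.2% after thinning, against 0.778% of basal cells after thinning. Has3 was at or below 3.83 CPM in both subtypes and was not tested there.

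**Figure D2:**
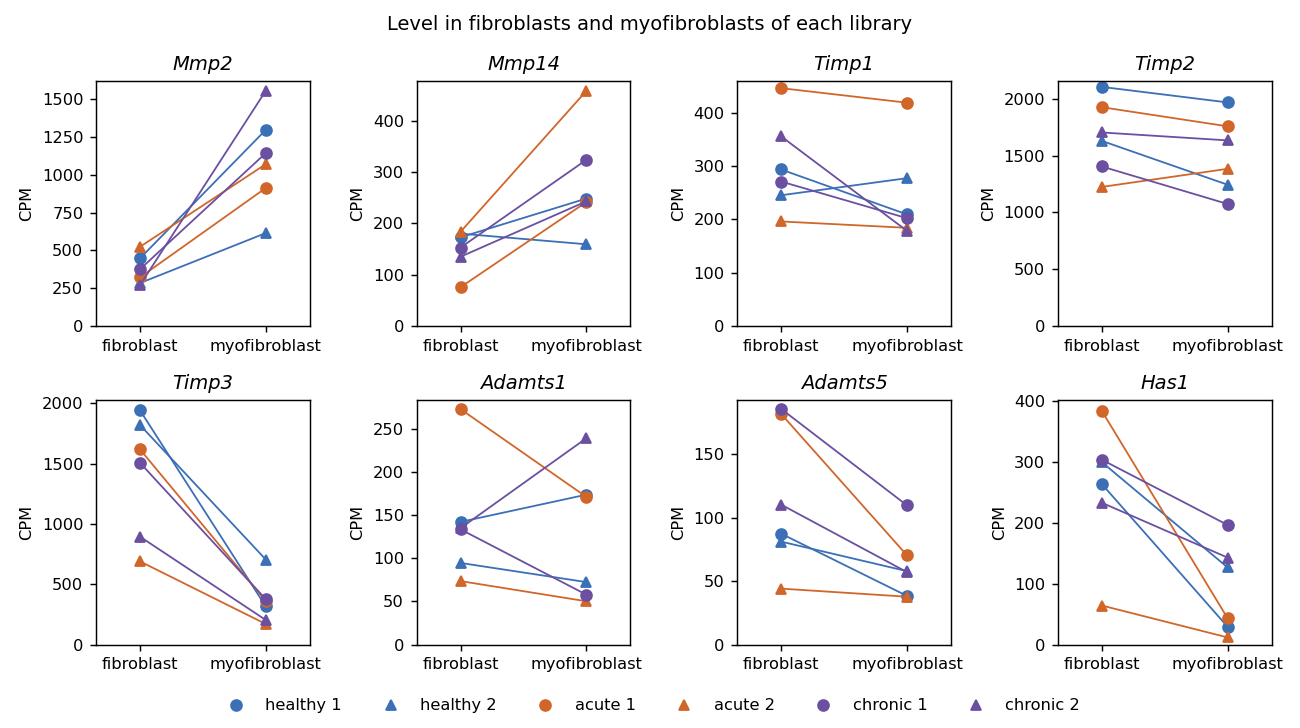
Level in CPM (vertical axes, starting at 0) of 8 genes in fibroblasts and myofibroblasts, with 1 line for each of the 6 libraries. The lines rise in 6 of 6 libraries for Mmp2 and in 5 of 6 for Mmp14, fall in 6 of 6 for Timp3, Adamts5 and Has1, and run in both directions for Timp1, Timp2 and Adamts1.

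Within the subtypes, sub-clusters differed in the same genes, which is a description because the sub-clusters come from these cells. Has1 had its highest mean, 382 ± 85.9 CPM (SD, n = 5 libraries), in the fibroblast sub-cluster led by Bglap2, Clec3b and Scara5, followed by 227 ± 114 CPM (SD, n = 5) in the sub-cluster led by Clec3b, Pi16 and Mfap5. It was at 101 ± 69.8 CPM in that led by Bglap2, Clec3b and Itm2a and at 117 ± 64.5 CPM in that led by Inmt, Hsd11b1 and Gsn (both n = 5), and these last 2 did not differ beyond their spread. Among myofibroblasts, Has1 was at 170 ± 130 CPM (n = 6) in the sub-cluster led by Car3, Cxcl14 and Col6a3 and at 16.7 ± 24.6 CPM (n = 4) in the one led by Acta2, Car3 and Tagln.

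Timp3 followed a like order, from 1784 ± 699 and 1595 ± 477 CPM in the first pair of fibroblast sub-clusters over 889 ± 269 and 791 ± 234 CPM in the other pair to 245 ± 214 CPM (n = 4) in the Acta2-led myofibroblasts. Mmp2 ran the other way. Its mean was 346 to 542 CPM in the 4 fibroblast sub-clusters and 860 to 1746 CPM in the 5 myofibroblast sub-clusters, the highest being the sub-cluster led by Cxcl14, Car3 and Gatm, of which acute replicate 2 supplied most cells. In that sub-cluster (n = 2) Mmp14 stood at 506 ± 220 CPM and Has1 at 1.47 ± 2.07 CPM.

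Acute replicate 2 also had the lowest Has1 in urothelial cells as a whole, at 0.911 CPM against 1.69 to 6.63 CPM in the other libraries. The same held for Has3, at 7.51 CPM against 11.9 to 29.3 CPM. In the stroma, the low Has1 of acute replicate 2 went with a different make-up of its fibroblasts. The Bglap2 and Scara5 sub-cluster made up 18.5% of them, against 35.8% to 57.6% in the healthy libraries, acute replicate 1 and chronic replicate 1. The Bglap2 and Itm2a sub-cluster made up 43.0%, against 6.69% to 12.1%. These names give leading genes only. The mean relative level of Scara5, Bglap2, Bglap, Bglap3 and Clec3b together was higher in the Bglap2 and Itm2a sub-cluster (0.914) than in the Bglap2 and Scara5 one (0.75). Inside the Bglap2 and Scara5 sub-cluster, Has1 was at 328, 425, 490, 269 and 396 CPM (without chronic replicate 2, which had too few cells). Inside the Pi16 and Mfap5 sub-cluster it was at 281, 252, 342, 38.4 and 223 CPM. Acute replicate 2 was thus the lowest of the 5 in both, and also in the other 2 sub-clusters. With clusters not integrated, the fibroblasts of acute replicate 2 numbered 35 in place of 1584, since a cluster of 2832 cells led by Ifi27l2a, Col3a1 and Clec3b was left out as doublet-rich (36.1% called doublets). The fibroblast levels of this library, Has1 and Timp3 included, thus rest on the integrated clusters. The parts of the sub-cluster make-up and of the different gene names of this library in these levels were not tested.

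The layers of the urothelium carried a second pattern. Has3, Mmp14 and Adamts1 were graded from basal to superficial cells, and all 3 were higher in basal and lower in superficial than in intermediate cells. With Timp2, 4 of the 8 genes tested were higher in basal cells, where 41.4% of 11581 genes were called (20.8% higher), and none was lower. In superficial cells 3 of 8 were lower, where 55.2% of genes were called (27.6% lower).

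Has3, which makes shorter hyaluronan chains and is a known gene of stratified epithelia, had 101, 35.8, 95.1, 17.5, 43.5 and 109 CPM in basal cells. The levels fell to 15.2, 13.5, 19.0, 5.71, 10.5 and 18.2 CPM in intermediate cells and to 3.02, 1.44, 2.83, 1.33, 2.86 and 7.22 CPM in superficial cells. The order basal, intermediate, superficial held in 6 of 6 libraries, while the basal levels themselves spread from 17.5 CPM in acute replicate 2 to 109 CPM in chronic replicate 2. The log2 fold changes were 2.11 ± 0.13 (SE; edgeR adjusted p = 8.25e-12) for basal against intermediate and -1.96 ± 0.26 (SE; edgeR adjusted p = 7.65e-07) for superficial against intermediate. A UMI of Has3 was seen in 18.8% ± 9.43 (SD, n = 6) of basal, 6.29% ± 2.29 of intermediate and 2.85% ± 2.01 of superficial cells. After thinning the shares were 11.0%, 2.88% and 0.585%, against 0.380% of fibroblasts.

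Mmp14 had 34.9, 31.7, 38.0, 37.3, 42.8 and 23.5 CPM in basal cells, between 10.2 and 21.8 CPM in intermediate cells and 4.53, 4.31, 5.65, 14.9, 6.92 and 6.01 CPM in superficial cells. Basal and intermediate libraries did not overlap, and only the superficial cells of acute replicate 2 reached the intermediate range. The log2 fold changes were 0.94 ± 0.10 (SE; edgeR adjusted p = 1.34e-07) for basal and -1.08 ± 0.15 (SE; edgeR adjusted p = 2.76e-06) for superficial cells. The share with a UMI was 12.3% ± 2.43 (SD, n = 6) of basal, 8.48% (5.29% to 11.6% over the libraries) of intermediate and 6.02% ± 3.09 of superficial cells, and 6.55%, 3.59% and 1.78% after thinning.

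Adamts1 stood at 22.3, 25.4, 47.5, 33.0, 22.2 and 44.9 CPM in basal cells, at 10.7, 14.1, 21.5, 14.5, 8.70 and 14.7 CPM in intermediate cells and at 2.15 to 7.22 CPM in superficial cells. The 3 layers did not overlap over the 6 libraries. Log2 fold changes were 1.11 ± 0.10 (SE; edgeR adjusted p = 3.71e-09) for basal and -1.53 ± 0.17 (SE; edgeR adjusted p = 3.94e-08) for superficial cells. Timp2 was the only inhibitor that passed, by 0.31 ± 0.10 (SE; edgeR adjusted p = 0.0134) in basal cells. Its basal levels ran from 89.5 CPM in chronic replicate 2 to 189 CPM in healthy replicate 1, and without acute replicate 1 the adjusted p was 0.0532.

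**Figure D3:**
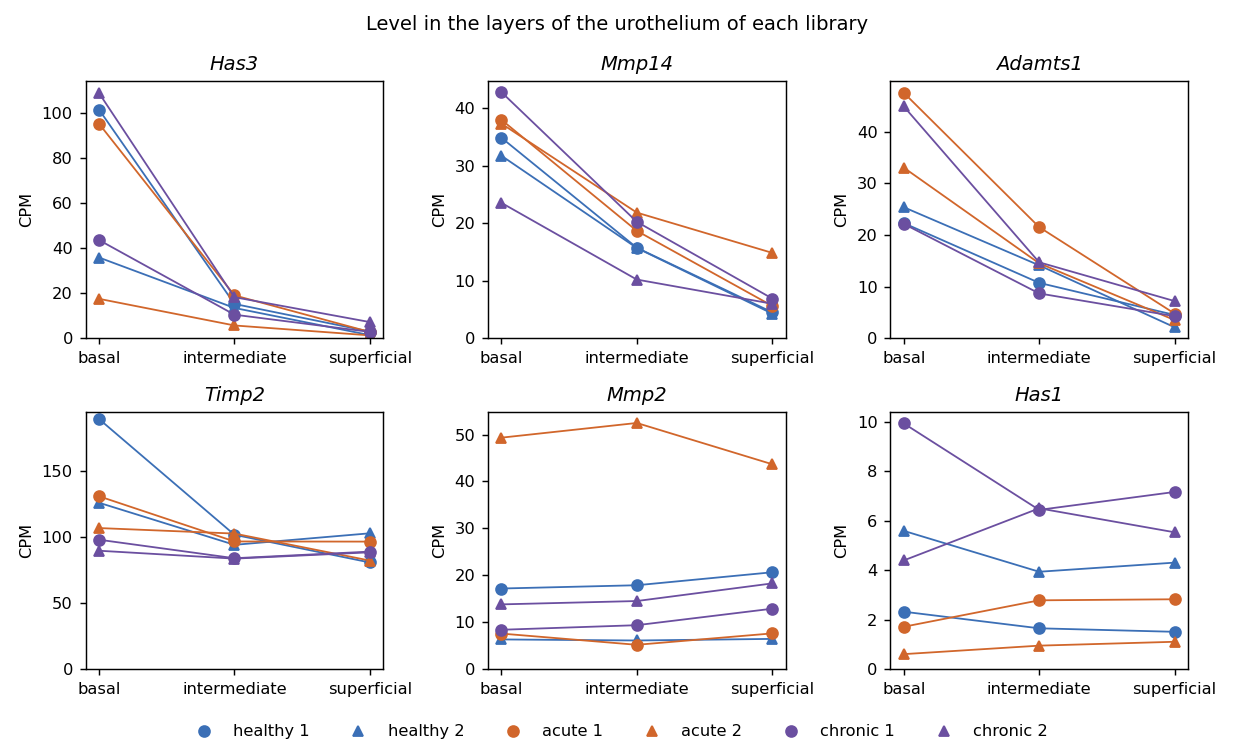
Level in CPM (vertical axes, starting at 0) of 6 genes in basal, intermediate and superficial cells, with 1 line for each of the 6 libraries. Lines of Has3, Mmp14 and Adamts1 descend from basal to superficial in every library, whereas those of Mmp2 and Has1 run in both directions from layer to layer.

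Mmp2 and Has1 did not follow the layers. Their log2 fold changes in superficial cells were 0.21 ± 0.11 (SE; edgeR adjusted p = 0.0960) and 0.12 ± 0.20 (SE; edgeR adjusted p = 0.638), and that of Mmp2 in basal cells was -0.05 ± 0.10 (SE; edgeR adjusted p = 0.728). Decorin (Dcn), a proteoglycan of connective tissue cells, was measured beside them as a gene that urothelial cells should lack. Its log2 fold changes were -0.03 ± 0.08 in basal and 0.18 ± 0.08 in superficial cells (SE), with edgeR adjusted p of 0.818 and 0.0477. With called doublets kept, or without acute replicate 2, Mmp2 and Timp3 also passed as higher in superficial cells. By CPM within each library, called doublets left out, Timp3 was higher there in only 2 of 6 libraries and lower in 4. Mmp2 was higher in 5 of 6.

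Compared with urothelial cells, mesenchymal cells as a whole had higher levels of 8 of the 9 genes and a lower level of Has3, and all 9 passed the test, where 70.1% of 14048 genes were called. The log2 fold changes were 6.38 ± 0.32 (SE) for Adamts5, 6.04 ± 0.30 for Timp1, 5.82 ± 0.29 for Timp3, 5.65 ± 0.33 for Mmp2 and 5.61 ± 0.29 for Has1. They were smaller for Timp2 (3.97 ± 0.13), Mmp14 (3.34 ± 0.19) and Adamts1 (3.03 ± 0.28), and -3.53 ± 0.27 for Has3 (edgeR adjusted p from 1.12e-08 to 3.79e-06 over the 9 genes). The median of all genes was -0.12 in this comparison.

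The urothelial levels were set beside those of genes of mesenchymal cells, whose UMIs in urothelial cells can come from free RNA, from doublets that were not called or from the cells themselves, which these data do not tell apart. The 4 genes used, Dcn, Lum, Col1a1 and Col3a1, had medians over the 6 libraries of 1.03%, 1.64%, 1.04% and 1.26% of their mesenchymal level in urothelial cells, and acute replicate 2 gave the highest value of each. Mmp2 (median 1.84%), Timp1 (1.61%), Timp3 (1.56%), Adamts5 (1.14%) and Has1 (1.97%) had low shares too, likewise with the highest value in acute replicate 2. Within libraries, Mmp2 and Has1 each lay above all 4 of those genes in 5 of 6 libraries, Timp3 in 3, Timp1 in 2 and Adamts5 in 0. Against Dcn, Col1a1 and Col3a1 alone, without Lum, which was added after its values were seen, Mmp2 and Has1 lay above in 6 of 6 libraries, Timp1 and Timp3 in 4 and Adamts5 in 2. Timp2 (6.00%), Mmp14 (9.88%) and Adamts1 (9.41%) lay above the highest value of any of those 4 genes, 3.09%, in each of the 6 libraries. How much of the low urothelial levels of Mmp2, Timp1, Timp3, Adamts5 and Has1 came from each of these sources was not tested. Has3 had a median of 946%, with a mean of only 1.93 ± 0.93 CPM (SD, n = 6) in mesenchymal cells. Mesenchymal cells also carried urothelial UMIs. The summed level of 6 urothelial markers had a median of 1322 CPM in them, against 8414 CPM in urothelial cells. How much of the mesenchymal Has3 came from such UMIs was not tested.

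**Figure D4:**
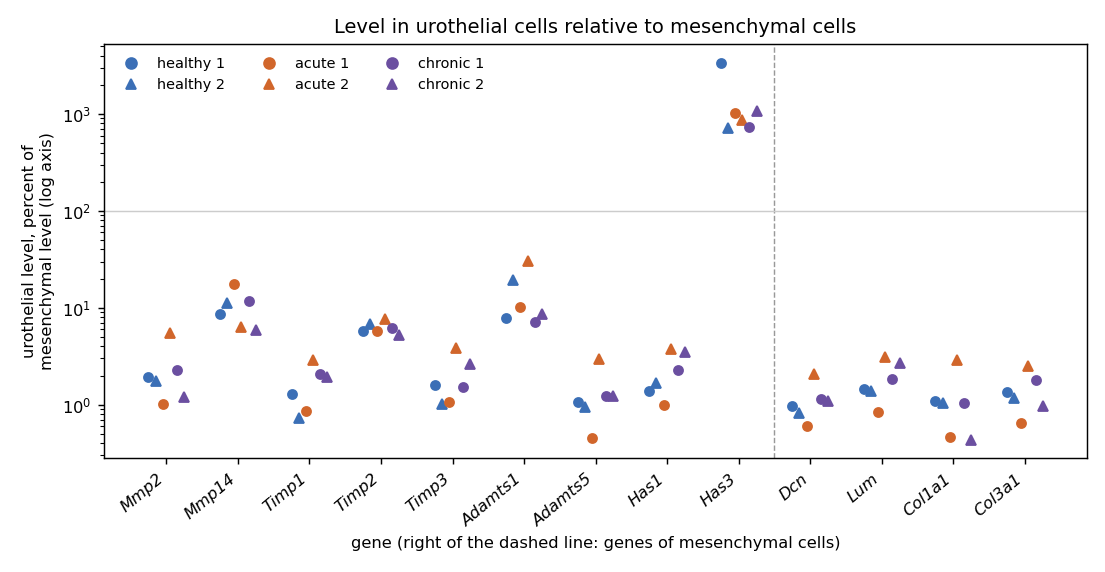
Urothelial level as a percent of the mesenchymal level in the same library (vertical log axis) for 9 genes and, right of the dashed line, for 4 genes of mesenchymal cells, with 1 point per library. Has3 lies above 100%, Timp2, Mmp14 and Adamts1 between 5.20% and 30.6%, and the other 5 genes at or below 5.50%, against at most 3.09% for the 4 genes on the right.

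Injury did not change any of the 9 genes past the test. The comparison of acute and chronic libraries with healthy ones, and with each other, was made in fibroblasts, myofibroblasts and the 3 urothelial layers, and in these 15 comparisons 0 of 123 member tests passed in edgeR, with adjusted p from 0.749 to 1.00. Unadjusted, 7 of the 123 had p under 0.05 in edgeR. Over all genes this ran, in myofibroblasts, from 212 of 8105 for acute against healthy to 523 of 8105 for chronic against acute. In fibroblasts it was 616 of 10866 for chronic against healthy. The 7 thus do not stand out from all genes. Of them, 5 were Has1, 4 of these in urothelial layers, where its mean level was 4.09 CPM or less. DESeq2 called none of the 9 genes either. Of all genes, 0.101% of 10866 were called in fibroblasts for acute against healthy (0.0920% higher and 0.00920% lower), 0.0552% for chronic against healthy and 0 for chronic against acute, and 0 in the 12 comparisons of the other 4 classes, with 212 to 616 genes at an unadjusted p under 0.05 in each comparison. The standard errors of the log2 fold changes ran from 0.19 to 0.96, with a median of 0.48, and with 2 libraries a group even the log2 fold change of 2.80 for Has1 in chronic against acute myofibroblasts did not pass.

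Timp3 was at 1944 and 1822 CPM in healthy, 1619 and 690 CPM in acute and 1508 and 895 CPM in chronic fibroblasts, so that both injured pairs lay below the healthy one. The 690 CPM are those of acute replicate 2. Its fibroblasts were to 43.0% and 28.6% in the pair of sub-clusters with the lower Timp3. In healthy replicate 1 the shares were 6.69% and 14.2%, and in healthy replicate 2 they were 12.0% and 8.82%. The part of this make-up in the Timp3 level was not tested. The 895 CPM of chronic replicate 2 rest on 23 cells. The log2 fold changes were -0.71 ± 0.47 (SE; edgeR adjusted p = 1.00) for acute and -0.75 ± 0.47 (SE; edgeR adjusted p = 0.963) for chronic injury. In what follows, shares of genes lying apart are over genes with a UMI in every library of the class (8773 in fibroblasts). The 9 genes were counted without that limit, and Has3 had no UMI in some fibroblast and myofibroblast libraries. Timp3 was 1 of 9 genes whose acute libraries lay apart from the healthy ones in fibroblasts, where 31.3% of genes did so, and 1 of 3 for chronic libraries, where 41.0% did. The other 2 were Mmp14, at 173 and 180 CPM in healthy and 153 and 135 CPM in chronic fibroblasts, and Adamts5, at 87.4 and 81.2 CPM in healthy and 186 and 110 CPM in chronic fibroblasts. In basal cells, 5 of 9 genes lay apart between acute and healthy libraries, where 27.7% of genes did, Mmp14, Timp1 and Adamts1 being higher and Timp3 and Has1 lower. In acute myofibroblasts 0 of 9 did so, where 29.6% of genes did. In intermediate cells 4 of 9 did so (Mmp14, Timp1 and Adamts1 higher, Timp3 lower), where 25.6% of genes did, and in superficial cells 2 of 9 (Mmp14 and Timp1, both higher), where 29.4% did. For chronic against healthy libraries, 2 of 9 lay apart in myofibroblasts (35.4% of genes), 1 in basal cells (31.4%), 4 in intermediate cells (32.6%) and 3 in superficial cells (32.0%). For chronic against acute libraries the counts were 0 of 9 in fibroblasts (33.9%), 2 in myofibroblasts (38.0%), 3 in basal cells (28.6%), 2 in intermediate cells (28.8%) and 4 in superficial cells (30.1%). None of these passed the test, the lowest unadjusted p for Mmp14 and Adamts1 being 0.0360 for Adamts1 in basal cells (log2 fold change 0.79 ± 0.32, SE, edgeR adjusted p = 1.00).

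Mmp14 gave the largest acute difference in myofibroblasts among the proteases, at 248 and 159 CPM in healthy and 241 and 458 CPM in acute libraries. The 458 CPM are those of acute replicate 2, where the Gatm-led sub-cluster made up 23.9% of myofibroblasts, against 2.43% in healthy replicate 1 and under 20 cells in each other library. In the sub-cluster led by Car3, Cxcl14 and Col6a3, Mmp14 was at 161, 155, 170, 381, 148 and 129 CPM, again highest in acute replicate 2. The part of the sub-cluster make-up in the Mmp14 level was not tested. The healthy and acute pairs overlapped, and the log2 fold change was 0.79 ± 0.39 (SE; edgeR adjusted p = 1.00). In fibroblasts the acute levels were 75.6 and 183 CPM. The difference between the 2 acute effects was 1.30 ± 0.28 on the log2 scale (SE; edgeR adjusted p = 0.122, unadjusted p = 0.000145) and did not pass, over all genes 0.00915% of 10929 being called. The difference passed without a filter on low counts (edgeR adjusted p = 0.00701). That fit called 23 to 37 of all genes over the 2 compared effects, against 0 to 1 in the main fit. It also passed without healthy replicate 1 and without acute replicate 2. These fits leave 1 library in a group and likewise called more of all genes than the main fit. Over the 11 alternatives the difference ran from 0.94 to 1.69 and passed in 3.

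Has1 in myofibroblasts stood at 29.1 and 127 CPM in healthy, 43.2 and 11.6 CPM in acute and 196 and 143 CPM in chronic libraries. The chronic pair lay above the other 4 libraries, but on sums of 78 and 90 cells. Log2 fold changes were -1.63 ± 0.79 (SE; edgeR adjusted p = 1.00) for acute against healthy and 2.80 ± 0.83 (SE; edgeR adjusted p = 0.749) for chronic against acute. Over the alternatives the first ran from -2.65 (without acute replicate 1) to -0.32 (without healthy replicate 2), being -0.74 without acute replicate 2, and the second from 1.89 (without acute replicate 2) to 3.80 (without acute replicate 1). Both passed in the fit without a filter on low counts, with adjusted p of 0.0255 and 1.89e-05, and in no other. The chronic effect in myofibroblasts minus that in fibroblasts was 1.57 ± 0.47 (SE; edgeR adjusted p = 0.982), and it passed in 4 of 11 alternatives. These included the fit without a filter on low counts, which called 23 to 37 of all genes over the 2 compared effects, against 0 to 1 in the main fit.

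In fibroblasts the acute levels of Has1 were 384 and 64.1 CPM, 1 above and 1 below both healthy libraries. The log2 fold change for acute against healthy was -0.36 ± 0.62 (SE; edgeR adjusted p = 1.00). Without acute replicate 1 it was -2.12 and passed (edgeR adjusted p = 0.0347), resting on the single library acute replicate 2, and without acute replicate 2 it was 0.44. The share of fibroblasts with a UMI of Has1 was 38.5%, 34.3%, 50.7%, 7.51%, 34.9% and 43.5%, and 7.91% in acute replicate 2 against 28.4% to 40.8% in the others after thinning, where the 750 shallower of its 1584 fibroblasts were left out. Fewer of its fibroblasts had a UMI of Has1 with and without thinning.

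**Figure D5:**
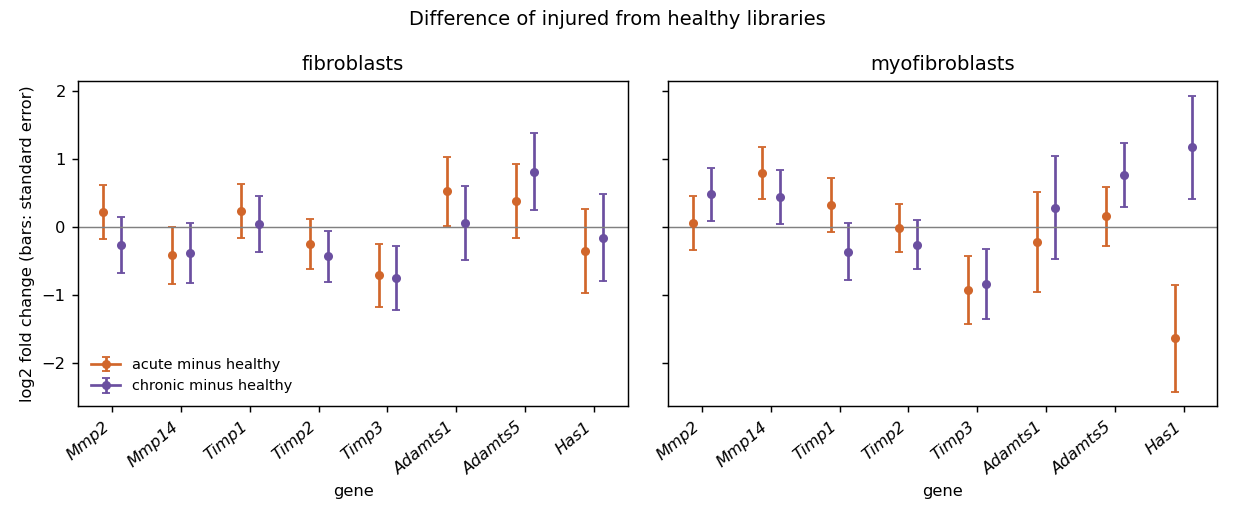
Log2 fold changes of 8 genes (vertical axis) for acute and chronic against healthy libraries in fibroblasts and myofibroblasts, with 2 libraries a group and bars of 1 standard error. Has1 spans -1.63 to 1.17 in myofibroblasts, Timp3 lies below 0 in all 4 comparisons, and no point passed the test.

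The wider matrix list held 58 other genes, of which 44 were in all 6 tables. None of them was called between conditions in any class. Between myofibroblasts and fibroblasts 34 were tested, of which 11 were higher in myofibroblasts, 11 lower and 12 not called, against the 21.7% of all genes called. The median log2 fold change was 0.11 over the list, -0.22 over the 8 genes above and 0.00 over all genes.

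Among the other proteases, 5 of 15 were higher and 5 lower in myofibroblasts. Apart from the 2 most abundant of each group, the genes named here were chosen after their values were seen. Adamts9, a versican-cutting enzyme, was higher by 3.14 ± 0.21 (SE) and urokinase (Plau) by 2.43 ± 0.36 on the log2 scale, whereas Mmp11 fell by 1.28 (SE 0.27). The most abundant in fibroblasts, cathepsins L and B (Ctsl at 524 ± 217 CPM and Ctsb at 472 ± 87.7 CPM, SD, n = 6), did not pass (edgeR adjusted p = 0.187 and 0.0525). Among the other inhibitors and regulators, Serpinf1 was higher (log2 fold change 0.97 ± 0.15, SE). Serpine2, which blocks thrombin and plasminogen activators, was lower (log2 fold change -3.44 ± 0.19, SE). The most abundant, Serping1 (1581 ± 562 CPM) and Bsg (755 ± 69.6 CPM), did not pass (edgeR adjusted p = 0.468 and 0.398).

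Of the other hyaluronan genes, the synthase Has2 (-1.94 ± 0.37, SE), Ugdh (-0.81 ± 0.12), which makes a sugar precursor of hyaluronan, and Itih5 (-0.99 ± 0.12) were lower in myofibroblasts on the log2 scale. The hyaluronan-binding receptor Cd44 (1.17 ± 0.22) and the hyaluronidase Tmem2 (2.16 ± 0.31) were higher. Ugdh had 645 ± 374 CPM and Itih5 638 ± 128 CPM in fibroblasts (SD, n = 6). Of the 5 proteoglycans of the list 4 were tested and called (Acan was not tested), versican (Vcan, 1.16 ± 0.13) and Bgn (0.72 ± 0.12) being higher and Dcn (-0.61 ± 0.16) and Lum (-3.07 ± 0.29) lower. The edgeR adjusted p of the genes called here ran from 8.96e-11 for Serpine2 to 0.00809 for Dcn among those given with a value.

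Over the 46 sums of a library and a class, the genes whose log2(CPM + 1) ran most like that of a member were given by Pearson's r, as a description in which the points share libraries and cell classes. For Mmp2 they were Col1a1 (r = 0.973) and Thbs2 (0.970). Timp3 ran with Prkcdbp (0.962) and Sparcl1 (0.957), Timp1 with Ptgis (0.944) and Foxf1 (0.937), Timp2 with Il11ra1 (0.944) and Tm2d2 (0.937), and Mmp14 with Fkbp9 (0.880) and Myh10 (0.867). Adamts1 ran with Ptrf (0.927) and Igfbp7 (0.904), Adamts5 with Fxyd1 (0.941) and Jph2 (0.921), Has1 with Ndrg4 (0.903) and Chodl (0.894), and Has3 with Aebp2 (0.826) and Pds5a (0.822). Among the 9 genes themselves, r was highest for Timp1 with Timp2 (0.919) and lowest for Timp1 with Has3 (-0.580).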

How the data were processed

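The authors deposited 1 table of raw UMI counts per library, made per the submitters' processing notes with Cell Ranger on mm10. No deposited column named cell types, so they were rebuilt from the counts. Genes were limited to those in all 6 tables after the tables had been seen, without mitochondrial and ribosomal genes. A barcode was used if it had more than 500 genes and a mitochondrial share below 10%, which left 55398, and doublets (4469 called, 449 in a doublet-rich cluster and 80 in mixed mesenchymal sub-clusters, the last by a rule set after seeing them) were left out. The libraries were integrated (Seurat 5.3.0) and clustered (leidenalg 0.10.2, resolution 0.8) without the genes described or the listed matrix genes as features, and cycling cells were left out of the urothelial layers.

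UMIs were summed per library and class with at least 20 cells. The sums were tested in R 4.3.3 with edgeR 4.0.16 (quasi-likelihood test, TMM factors, filterByExpr, two-sided, Benjamini-Hochberg adjustment over all genes tested, threshold 0.05), with the library as a block between classes. SE values of edgeR were taken as the absolute log2 fold change divided by the square root of the test's F statistic. They are approximate. The scripts were tested on simulated data. Alternatives were DESeq2 1.42.0, no filter on low counts, each library left out in turn, the replicate number as a block, doublets kept, over 1000 genes and under 5% mitochondrial UMIs, clusters not integrated, cycling cells kept and cells thinned to 2000 UMIs. All members were named, with the 2 genes most like each of them (Pearson's r, log2(CPM + 1)) and, of the listed matrix genes, those called between conditions in fibroblasts or myofibroblasts (none) and otherwise the 2 most abundant of each group in fibroblasts. Dcn, Col1a1 and Col3a1 were named as genes that urothelial cells should lack. Other listed genes given by name, Lum included, were chosen after their values were seen. Members and lists were chosen with earlier results of these data known. P-values measure the spread between libraries only, and depth was between 5530 and 9138 UMIs per barcode by the median of a library.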

Additional observations from a re-analysis of the deposited data

Results flagged for a closer look

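Mmp2 in basal against intermediate cells stood apart in acute replicate 1, where the log2 difference was 0.47, with a gap to the nearest library of 0.694 of the range of all 6. This was 1 of 36 sets of 6 libraries looked at, and chance gives about 1 in 20. In 3 cases the log2 difference had the same sign in both libraries of 1 condition and the opposite sign in both of another. These were Timp2 (-0.24) and Adamts5 (-0.60) in superficial against intermediate cells, as the acute minus the chronic mean log2 difference, and Has1 in basal against intermediate cells (0.75, healthy minus acute). For Timp2 and Adamts5, acute replicate 1 had almost no difference (-0.00164 and -0.0191), against -0.317 and -0.674 in acute replicate 2. These differences were not tested, and the share of all genes with such a pattern was not counted. Adamts5 and Has1 had low levels in these layers, with means of 1.09 and 4.09 CPM or less.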

How the results depend on the processing

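Of the 257 counts of members called under an alternative, 245 stayed the same, and of the 461 log2 fold changes of named members 444 did, with 14 passing newly, 1 no longer passing and 2 changing sign. Has1 in acute against healthy fibroblasts changed sign without acute replicate 2 (0.44) and with clusters not integrated (0.23), against -0.36. Members called rose from 0 to 1 without a filter on low counts for acute against healthy and chronic against acute myofibroblasts (Has1 in both) and for the acute (Mmp14) and chronic (Has1) effects compared between the subtypes. With doublets kept, 5 members were called between superficial and intermediate cells, against 3. Leaving out 1 library at a time gave 0 to 1 members called for acute against healthy fibroblasts (1 without acute replicate 1, Has1 at -2.12) and for both compared effects, and 3 to 5 for superficial against intermediate cells (5 without acute replicate 2). Timp2 in basal cells no longer passed without acute replicate 1 (0.29, edgeR adjusted p = 0.0532). The cause of these changes was not tested.

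Thinning lowered the share of cells with Mmp14 to 6.55% of basal, 3.59% of intermediate and 1.78% of superficial cells, and with Has3 to 2.88% of intermediate and 0.585% of superficial cells, where cells under 2000 UMIs were also left out. The replicate numbers do not pair the libraries by the rule used (correlations of same-numbered deviations from 0.0790 to 0.405 between healthy and acute libraries, positive in all 5 classes, but from -0.301 to 0.00279 where chronic libraries enter), and with the replicate block 0 members were called between conditions, while all genes called ran from 0 to 27. All genes called between conditions ran from 0 to 11 in edgeR and from 0 to 45 in DESeq2, 0 to 91 without a filter and 0 to 124 without acute replicate 1. Where leaving out a library left 1 in a group, that library was assumed to vary like the others. With 2 libraries a group, the number of libraries limits every comparison between conditions.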
